A study of Mus musculus with 17 samples.

Results

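The genes described here are 8 matrix and receptor genes that stromal cells of bone marrow commonly transcribe, followed in cultures of mouse macrophages and their preosteoclast descendants. They are Col1a1, Col1a2, Col3a1, Sparc, Postn, Dcn, Pdgfra and Pdgfrb, 8 of 41388 genes in the files, and they were taken by symbol from the read counts of all 17 libraries. Because they were chosen by their levels in these same libraries, with earlier results of these data known, their levels and differences are given as a description and carry no p-value of their own; counts of calls among them stand beside the share of all genes called, and nothing is read from them. Bone marrow macrophages (BMMs) had been grown with M-CSF, the macrophage growth factor, supplied as medium conditioned by a producing cell line. Preosteoclasts (preOCs) were such cells given RANKL at 100 ng/ml for 24 h, and came from male mice of 20 weeks; the age and sex of the mice behind the BMM libraries were not given in the labels. Bap1flox mice carried floxed alleles of Bap1, a nuclear deubiquitinase, and no Cre. Bap1LysM mice carried the same floxed alleles and were, by the paper, heterozygous for LysM-Cre. This is a Cre inserted into the lysozyme gene Lyz2, which acts in myeloid cells and is not known as a stromal driver. There were 3 libraries of Bap1flox BMMs, 3 of Bap1LysM BMMs, 6 of Bap1flox preOCs and 5 of Bap1LysM preOCs.

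Collagen I is a heteromer of the products of Col1a1 and Col1a2, and collagen III is a homotrimer of the Col3a1 product. Both form the fibrils of bone, skin and vessel wall. Sparc (osteonectin) and Postn (periostin) are secreted proteins that bind collagen and tune the matrix, and Dcn (decorin) is a small proteoglycan that coats collagen fibrils. Pdgfra and Pdgfrb encode the receptors through which mesenchymal cells answer platelet-derived growth factors. In bone marrow these genes are chiefly those of fibroblasts, osteoblasts and perivascular cells. Macrophages and osteoclasts are of the blood lineage and degrade collagen rather than lay it down.

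The sequence before the transcription start is shown for the members in which the letters TATAAA were found. Whether these letters act as a TATA box, or bear on the members' levels, was not tested. In RefSeq's promoter table (GRCm38.p6), which gave windows for 5 of the 8 genes (Col1a2, Col3a1, Sparc, Pdgfra and, with 2 starts, Postn), the letters TATAAA and CCAAT were searched for on both strands in the 250 bases before each start, and no match of the former overlapped one of the latter. TATAAA stood at position -117 for Col3a1 and -26 for 1 start of Postn, and CCAAT at -109 for Col1a2, all on the strand of the gene. The windows of Sparc, Pdgfra and the other Postn start held neither set of letters. Of all 32851 windows of the table, 12.4% held TATAAA and 33.85% held CCAAT, so that neither motif was rare among promoters at large. Capitals mark TATAAA, and each run ends at the base before the start. The first lies at chr1:45311408-45311537 and the second at chr3:54361047-54361106, both on the plus strand.
Col3a1: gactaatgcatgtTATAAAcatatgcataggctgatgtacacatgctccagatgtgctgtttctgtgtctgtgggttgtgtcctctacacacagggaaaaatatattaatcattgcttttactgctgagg
Postn: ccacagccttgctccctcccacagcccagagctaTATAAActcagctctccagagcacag

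Each library held 37967542 to 61369441 counted reads. Bap1 itself averaged 86.9 ± 9.20 CPM (counts scaled to the library's total, SD, n = 6) in Bap1flox preOCs and 70.8 ± 12.2 (n = 5) in Bap1LysM preOCs. Their ranges overlapped, at 70.3 to 97.1 CPM and 55.9 to 87.7 CPM, the last of these in Bap1LysM library 2. In BMMs Bap1 was at 82.1 to 84.4 CPM in Bap1flox against 74.8 to 77.1 CPM in Bap1LysM (n = 3 each). Replicates 1 to 3 and replicates 4 to 6 bore differently formed library names and stood apart: mitochondrial transcripts took 0.481 to 1.07% of the counts in the former and 2.36 to 5.26% in the latter. Lyz2, which the Cre insertion interrupts, stood at 0.146 to 0.436% of the Bap1flox mean in 6 Bap1LysM libraries, but at 42.8% in BMM library 1 and 75.1% in preOC library 1. Those libraries thus differed from the other 6 of the same label. The paper gives the mice as heterozygous for Cre, so Lyz2 alone does not tell which libraries go against the label. The members' differences between genotypes, RANKL responses of Bap1LysM and replicate series are also given without the libraries numbered 1. Macrophage markers such as Csf1r and Itgam were above 1 CPM in every library (10 of 10 genes), and their sum was 9303 to 12531 CPM in BMMs and 4776 to 6504 CPM in preOCs.

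All 8 genes were detected in every library, and together they took between 0.0126 and 0.313% of the counts. Their summed level was 607 to 3129 CPM in Bap1flox BMMs, 432 to 1449 CPM in Bap1LysM BMMs, 239 to 2516 CPM in Bap1flox preOCs and 126 to 1564 CPM in Bap1LysM preOCs. Every group thus spanned a wide range, and the ranges of all 4 groups overlapped. In bulk RNA, a library with fewer stromal cells and one with less matrix RNA per cell cannot be told apart.

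Col1a1 (ENSMUSG00000001506, GRCm38 chromosome 11, 94936224 to 94953042, plus strand) was the most abundant member. Its level in Bap1flox BMMs was 247, 1297 and 1468 CPM in libraries 1 to 3, and in Bap1LysM BMMs 178, 544 and 676 CPM. In Bap1flox preOCs it ran from 80.8 to 1208 CPM with a median of 429 CPM. In Bap1LysM preOCs it was 191, 761, 204, 44.0 and 185 CPM in libraries 1, 2, 4, 5 and 6. Library 1 was low in both BMM groups, and library 2 stood well above the rest of the Bap1LysM preOCs. Among Bap1flox preOCs, libraries 1 to 3 were at 701, 1071 and 1208 CPM and libraries 4 to 6 at 100.3, 158 and 80.8 CPM, so that these sub-series did not overlap. The highest library held 33.4 times the level of the lowest.

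Col1a2 (chromosome 6, 4504814 to 4541543, plus strand), the partner chain of collagen I, moved with Col1a1 library by library. Its level was 177, 803 and 917 CPM in Bap1flox BMMs and 115, 319 and 420 CPM in Bap1LysM BMMs. It ran from 62.5 to 703 CPM (median 262 CPM) in Bap1flox preOCs and was 125, 420, 139, 30.3 and 115 CPM in Bap1LysM preOCs. The ratio of Col1a1 to Col1a2 CPM stayed between 1.23 and 1.81 over the 17 libraries, while each gene varied more than 30-fold.

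Col3a1 (chromosome 1, 45311538 to 45349706, plus strand) was lower and less variable, with a 10.3-fold range. It was 23.7, 118 and 127 CPM in Bap1flox BMMs, 25.7, 52.0 and 62.4 CPM in Bap1LysM BMMs, 21.1 to 143 CPM (median 52.6 CPM) in Bap1flox preOCs, and 39.3, 119, 64.8, 13.8 and 53.1 CPM in Bap1LysM preOCs. Its ratio to Col1a1 was not constant. In preOC replicates 1 to 3 Col3a1 stood at 0.0941 to 0.205 of Col1a1, in preOC replicates 4 to 6 at 0.248 to 0.317, and in BMMs at 0.0864 to 0.145. Replicates 4 to 6 of the preOCs thus held more Col3a1 relative to Col1a1, without overlap with replicates 1 to 3.

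The matricellular genes followed the collagens. Sparc (chromosome 11, 55394500 to 55420080, minus strand) was 111, 396 and 456 CPM in Bap1flox BMMs and 83.9, 192 and 221 CPM in Bap1LysM BMMs. In preOCs it ran from 45.9 to 333 CPM (median 141 CPM) for Bap1flox and was 77.2, 196, 90.5, 25.6 and 92.0 CPM for Bap1LysM. Library 1 of both BMM groups and Bap1LysM preOC library 5 were again low. Postn (chromosome 3, 54361109 to 54391034, plus strand; its TATAAA-bearing promoter is printed above) was 35.2, 80.3 and 109.9 CPM in Bap1flox BMMs and 18.9, 31.8 and 43.5 CPM in Bap1LysM BMMs. It ran from 17.6 to 87.7 CPM (median 52.3 CPM) in Bap1flox preOCs and was 23.2, 39.7, 22.6, 6.82 and 34.8 CPM in Bap1LysM preOCs. As with Col3a1, Sparc stood higher against Col1a1 in preOC replicates 4 to 6 (0.443 to 0.582) than in replicates 1 to 3 (0.258 to 0.403). The ratio of Postn to Col1a1 overlapped between them (0.110 to 0.218 and 0.0522 to 0.121).

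Of the receptors, Pdgfrb, which marks pericytes and other mural cells, was the higher. Its level was 10.1, 37.9 and 43.1 CPM in Bap1flox BMMs, 8.84, 19.4 and 21.5 CPM in Bap1LysM BMMs, 4.27 to 34.4 CPM (median 12.97 CPM) in Bap1flox preOCs and 7.31, 24.2, 11.3, 4.14 and 10.2 CPM in Bap1LysM preOCs. Pdgfra, the receptor of fibroblasts and early mesenchymal cells (chromosome 5, 75152291 to 75198204, plus strand), was far rarer. It was 2.12, 5.05 and 6.24 CPM in Bap1flox BMMs, 1.07, 4.28 and 4.03 CPM in Bap1LysM BMMs, 0.705 to 4.84 CPM (median 1.34 CPM) in Bap1flox preOCs and 1.16, 3.58, 1.27, 0.357 and 1.71 CPM in Bap1LysM preOCs. The lowest of these rests on 20 reads, for which the exact Poisson 95% interval is 0.218 to 0.552 CPM and covers counting error only. Both receptors were highest in Bap1flox BMM library 3 and lowest in Bap1LysM preOC library 5, as were Col1a1, Col1a2, Sparc and Postn. Col3a1 had its lowest value in the same library, but its highest in Bap1flox preOC library 3.

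Dcn (chromosome 10, 97479500 to 97518162, plus strand) did not follow this order. It was 0.480, 0.699 and 0.644 CPM in Bap1flox BMMs and 0.627, 0.751 and 0.841 CPM in Bap1LysM BMMs. In Bap1flox preOCs it was 1.02, 1.84 and 2.18 CPM in libraries 1 to 3 and 7.34, 4.43 and 5.44 CPM in libraries 4 to 6. In Bap1LysM preOCs it was 0.984, 1.4, 1.4, 0.911 and 1.86 CPM. The high values were thus those of Bap1flox preOC replicates 4 to 6, in which Col1a1 was at its lowest for that group, whereas Bap1LysM preOCs of the same numbers stayed below 2 CPM. The least abundant value, in Bap1flox BMM library 1, rests on 26 reads (exact Poisson 95% interval 0.313 to 0.703 CPM).

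Per kilobase of exon, the medians over the 17 libraries ordered the members as Col1a1 (37.7 RPKM, reads per kilobase scaled to library size), Sparc (33.1), Col1a2 (14.6), Col3a1 (5.41), Postn (4.44), Pdgfrb (2.06), Dcn (0.490) and Pdgfra (0.254). Neighbours in this order overlapped over the libraries. Decorin, abundant in many fibroblasts, was thus near the bottom of the list in these cultures.

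**Figure D1:**
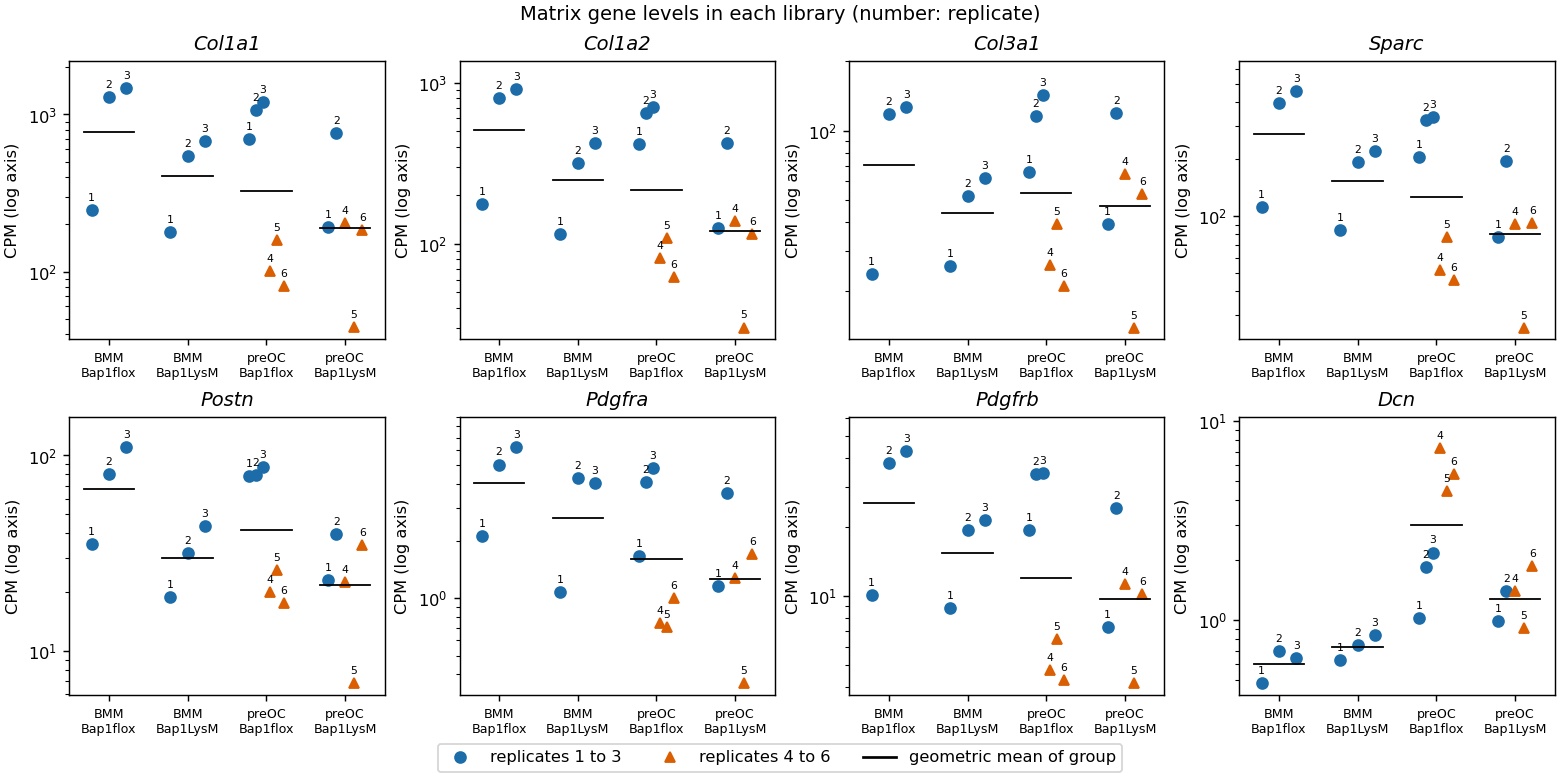
CPM of each of the 8 genes (log axis) in the 4 groups; each number is the replicate number of 1 library, its colour the replicate series (1 to 3 or 4 to 6), and the bar the geometric mean of the group. All 8 genes had replicate 1 lowest among replicates 1 to 3 in each group, of which Bap1LysM preOCs held only 1 and 2. Dcn reached 4.43 to 7.34 CPM in Bap1flox preOC replicates 4 to 6 and stayed at 2.18 CPM or below elsewhere.

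The 7 genes other than Dcn varied together between libraries. Over the 11 preOC libraries the 21 pairwise correlations of log2 CPM had a median Pearson r of 0.953 (0.876 to 0.998) and a median Spearman rho of 0.946. Over the 6 BMM libraries the median r was 0.949, and over all 17 libraries 0.938 (0.842 to 0.998). These libraries share replicate series and mitochondrial share, so the points are not independent, and no p-value is given. Within the 6 preOC libraries of replicates 4 to 6 the median r was 0.887 (0.683 to 0.997), and within the 6 Bap1flox preOC libraries 0.984. Without the 2 preOC libraries farthest from the median, Bap1LysM 5 and Bap1flox 3, it was 0.917. The joint movement was therefore present inside preOC replicates 4 to 6. The 6 Bap1flox preOC libraries span both replicate series, which did not overlap for Col1a1, so their r takes in the gap between series.

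Dcn correlated with the other 7 genes at a median r of -0.22 (-0.36 to -0.089) over the 11 preOC libraries, and at -0.38 over the 17. Its sign differed between subsets: the median r was 0.463 over the 6 BMM libraries, 0.114 within preOC replicates 4 to 6, -0.85 within Bap1flox preOCs and -0.63 without the 2 farthest libraries. These values are weak descriptions, since each subset held few libraries and the Bap1flox preOCs span both replicate series. Dcn rested on 26 to 44 reads a library in BMMs and on 47 to 447 in preOCs. The ratio of Dcn to Col1a1 varied 167-fold over the 17 libraries.

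**Figure D2:**
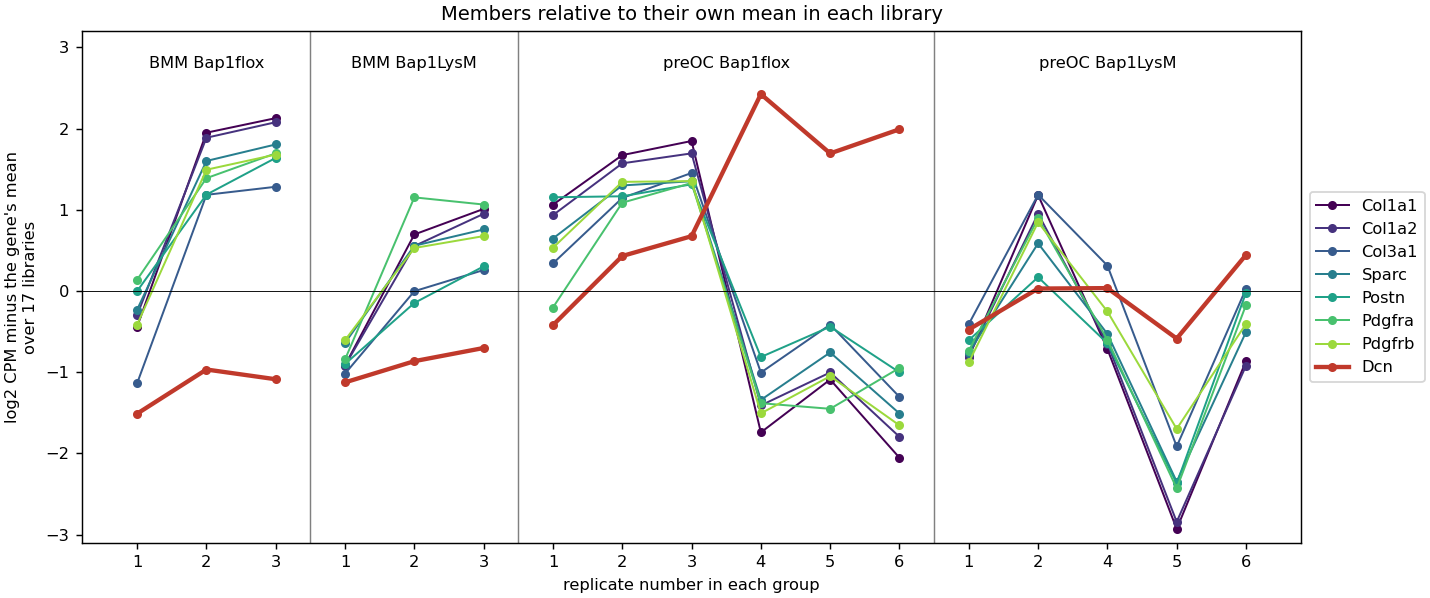
Log2 CPM of each member minus its own mean over the 17 libraries (vertical axis), with libraries ordered by group and replicate along the horizontal axis; lines only guide the eye. The 7 genes other than Dcn lie close together, lowest in Bap1LysM preOC library 5, and Dcn takes its own course with its highest values in Bap1flox preOC libraries 4 to 6.

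**Figure D3:**
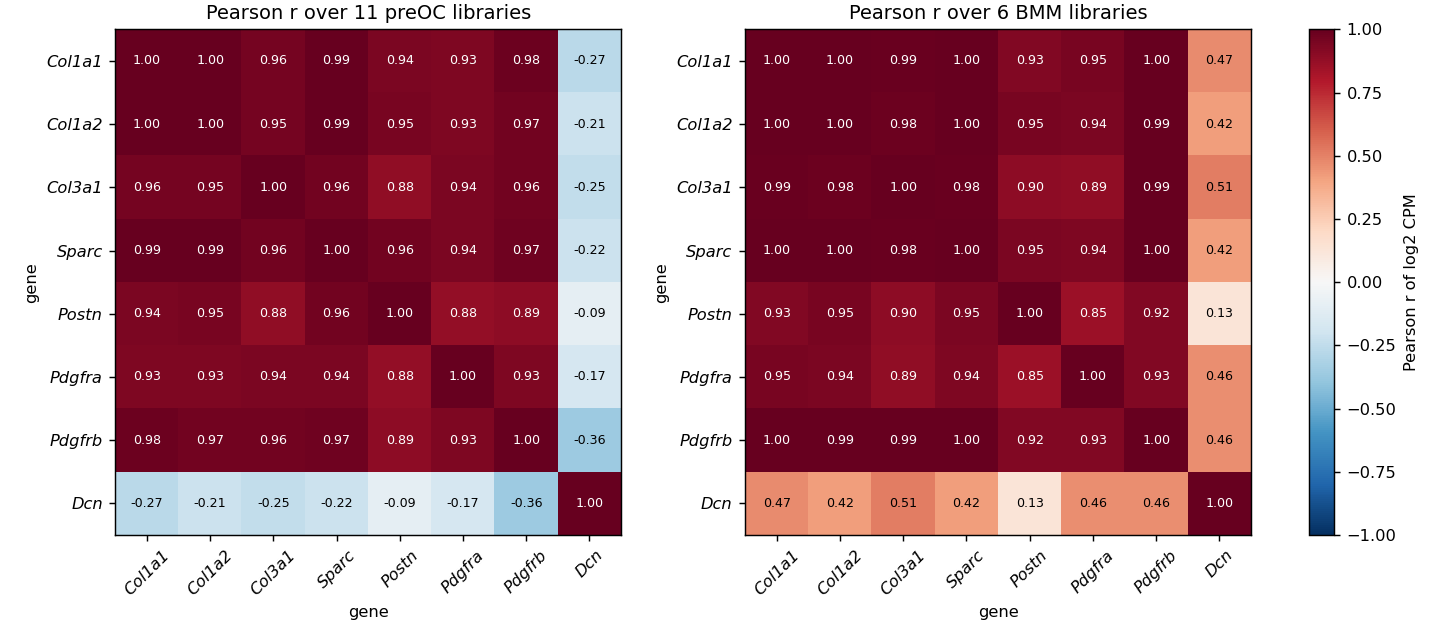
Pearson correlation of log2 CPM between each pair of members over the 11 preOC libraries (left) and the 6 BMM libraries (right), by colour from -1 to 1. The 7 genes other than Dcn form a block with a median of 0.953 in preOCs, and the row of Dcn is negative there and positive in BMMs.

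The replicate number went with the level. Among replicates 1 to 3, replicate 1 had the lowest level in 28 of 28 combinations of the 7 genes with the 4 groups, and in 4 of 4 groups for Dcn. The 7 genes moved together, so these combinations are not independent. Bap1LysM preOCs held only replicates 1 and 2 of this series. The share of all genes with replicate 1 lowest was not taken, and nothing is read from the count. Labels do not say that a number marks a shared animal or day. The biological coefficient of variation (BCV) is the spread between replicates that edgeR estimates beyond counting error. For the members in preOCs it was 0.524 (Dcn) to 0.846 (Col1a1), against a median of 0.207 over all 12919 genes tested there. That fit had genotype but not replicate series in its model, so this BCV takes in the difference between the series. In BMMs it was 0.373 to 0.569 for the 7 members tested, against a median of 0.157.

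Some genes outside the list followed the members' mean profile closely. They were picked as the highest of all genes compared, so high values were assured. Members were not so picked. Over the preOC libraries a member against the mean of the others gave 0.930 (Pdgfrb) to 0.9835 (Sparc), and Dcn -0.23. Of 12911 genes compared over the 11 preOC libraries with the mean profile of the members, the 10 with the highest Pearson r were Ccn4 (0.990), Cald1 (0.990), Cnn3 (0.990), Tpbg (0.989), Cyp1b1 (0.989), Fstl1 (0.989), Bgn (0.989), Cdh2 (0.988), Nfib (0.988) and Fn1 (0.986). Ccn4 is a secreted WNT target, Cald1 and Cnn3 encode actin-binding proteins, Bgn (biglycan) is the closest relative of decorin, Cdh2 is N-cadherin and Fn1 is fibronectin. Bgn, unlike Dcn, was abundant (25.3 to 293 CPM in preOCs). Over the 17 libraries the list was led by Ccn4 (0.982), Fbn1 (0.982), Srpx2 (0.980), Loxl1 (0.979), Cyp1b1 (0.978), Loxl2 (0.978), Timp1 (0.976), Snai1 (0.976), Fstl1 (0.976) and Bcat1 (0.974). Fbn1 encodes fibrillin, Loxl1 and Loxl2 lysyl oxidases that crosslink collagen and elastin, Timp1 an inhibitor of matrix metalloproteinases and Snai1 a transcription factor of mesenchymal transition. In all, 271 genes (2.10%) passed an r of 0.9 in preOCs and 244 (1.77%) over the 17 libraries.

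Marker lists of the cell types that could be in the cultures moved with the members to different degrees. The summed level of 12 pericyte and smooth muscle markers ran from 50.2 to 1745 CPM, and over the 11 preOC libraries its r with the summed level of the members was 0.989. Its leading genes were Acta2, smooth muscle actin, at 23.9 to 1031 CPM, Tagln at 12.4 to 289 CPM and Tpm2 at 6.20 to 141 CPM. The other matrix genes (39 genes, 775 to 4486 CPM) had an r of 0.936, led by Thbs1 (78.4 to 1157 CPM), Ecm1 (166 to 731 CPM) and Fn1 (25.0 to 487 CPM). The 25 collagen processing genes had an r of 0.947. The 23 mesenchymal identity genes had an r of 0.863, and among them Cxcl12, the chemokine of marrow stroma, ranged from 1.38 to 122 CPM. The 14 osteoblast markers, at 12.9 to 40.9 CPM in sum, had an r of 0.955. A high r was not limited to these lists. Ligands of the PDGF receptors had an r of 0.864 and adipocyte markers of 0.759, while genes of matrix degradation had 0.118.

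Several defining markers were at or near 0. Lum, a fibroblast proteoglycan, was at 0 in 13 of 17 libraries and at most 0.105 CPM; a count of 0 allows a level of up to 0.0489 to 0.079 CPM at these depths (3 reads of the total, counting error only). Of the 14 osteoblast markers, 2 to 4 were above 1 CPM in a library (Runx2, Tnfrsf11b, Alpl or Sp7), and 2 to 6 were at 0. Bglap2 was at 0 in 16 libraries, Sost in 15 and Mepe in 15, while the others were detected in most libraries or, as with Bglap and Dmp1, in 8 of 17. The fibroblast transcription factor Tcf21 was at 0 in 12 libraries. The 7 adipocyte markers summed to at most 2.54 CPM, with Adipoq at 0 in 11 libraries. The 12 endothelial markers ran from 21.1 to 62.7 CPM with an r of 0.457; Vwf led them (12.3 to 38.2 CPM) and Cldn5 was at 0 in 8 libraries. The r of the macrophage markers with the members was -0.68, that of the osteoclast markers -0.098 and that of the mitochondrial share -0.80. Whether mitochondrial share had a part in the members' levels was not tested.

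**Figure D4:**
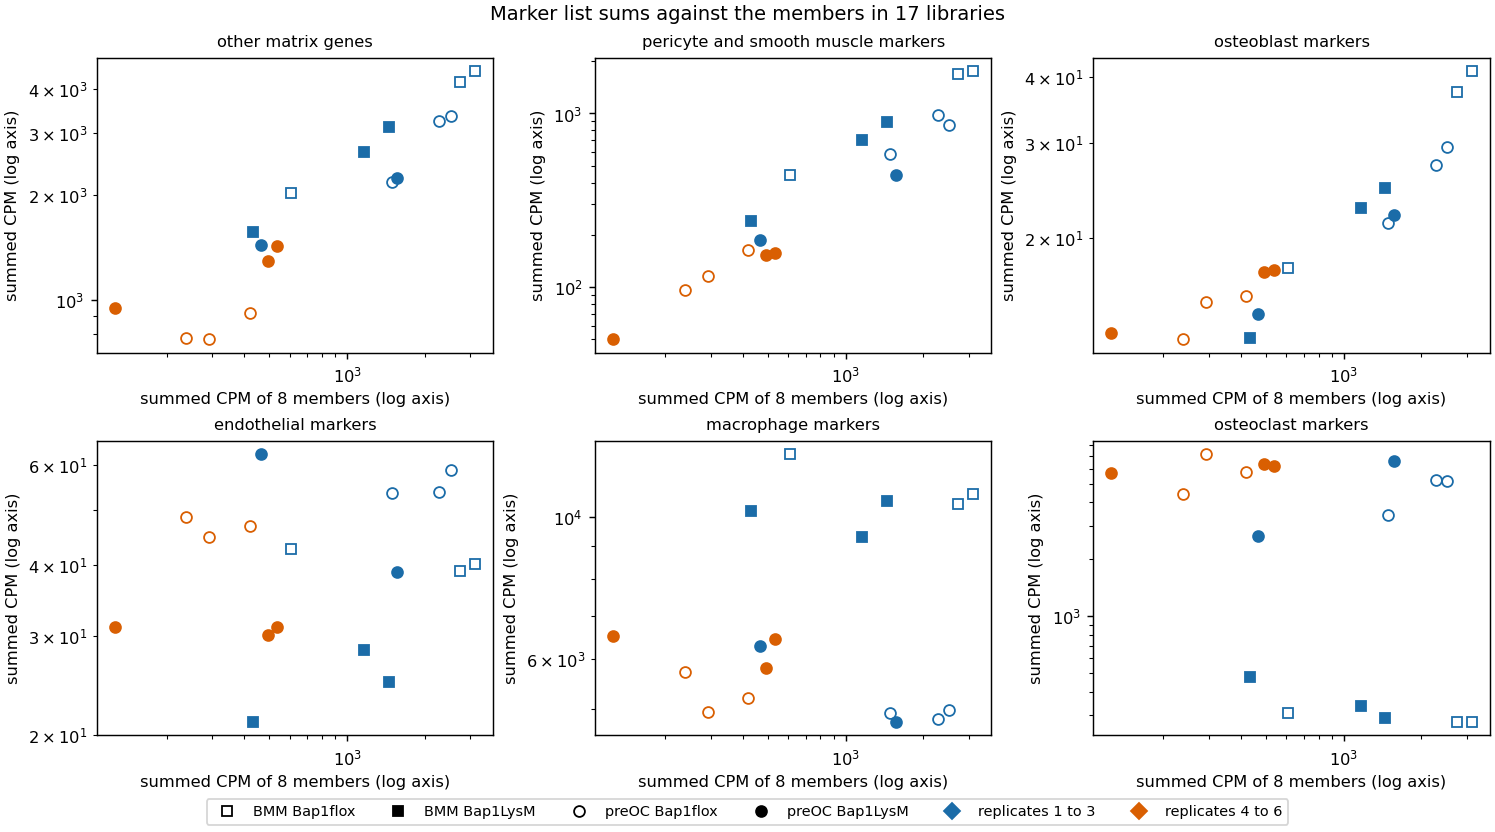
Summed CPM of 6 lists (vertical axes, log scale) against the summed CPM of the 8 members (horizontal axes, log scale), with 1 point for each of the 17 libraries, by group. Pericyte and smooth muscle markers rise with the members from 50.2 to 1745 CPM, and macrophage markers stay between 4776 and 12531 CPM.

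The comparison of genotypes in preOCs asked whether loss of Bap1 in myeloid cells went with a different matrix content. All 8 members had lower fitted levels in Bap1LysM preOCs, with log2 fold changes of -0.93 ± 0.80 (SE) for Col1a1, -0.95 ± 0.73 for Col1a2, -0.16 ± 0.55 for Col3a1, -0.76 ± 0.59 for Sparc, -0.93 ± 0.51 for Postn, -0.36 ± 0.61 for Pdgfra, -0.52 ± 0.60 for Pdgfrb and -1.45 ± 0.47 for Dcn (6 against 5 libraries). None of the 8 was called at an adjusted p under 0.05 by edgeR's quasi-likelihood test, where 15.8% of all genes were. Unadjusted, 1 member and 30.4% of all genes were under 0.05. voomWithQualityWeights called 2 members and 54.9% of all genes, and DESeq2 1 member and 15.6%. No member had ranges that did not overlap between genotypes, which 10.3% of all genes had. The differences were about 3 standard errors for Dcn and under 2 for the other 7.

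The sign of 7 of these differences rested on the replicates used. Within replicates 4 to 6 alone, the log2 fold change was 0.41 for Col1a1, 0.22 for Col1a2, 0.66 for Col3a1, 0.30 for Sparc, 0.06 for Postn, 0.48 for Pdgfra and 0.78 for Pdgfrb. Within replicates 1 to 3 it was -1.02, -1.06, -0.40, -1.01, -1.31, -0.53 and -0.85 in the same order. Without Bap1LysM library 1, which leaves 1 Bap1LysM library and takes the spread from Bap1flox (chosen after seeing the data), it was -0.38, -0.48, 0.14, -0.54, -1.04, 0.02 and -0.27; Postn was called there, beside 4.43% of all genes. Dcn had a negative value in both, -2.01 ± 0.28 in replicates 4 to 6, where it was called beside 33.7% of all genes, and -0.42 ± 0.40 in replicates 1 to 3, where no gene was. With the replicate number as a block, Dcn alone of the members was called lower (-1.32 ± 0.39), beside 32.8% of all genes. Without Bap1LysM library 1, Dcn stood at -1.37 ± 0.53 and Col1a1 at -0.83 ± 0.89, and with the block at -1.64 ± 0.33, again called, beside 34.2% of all genes, and 0.05 ± 0.49. Other libraries moved the values further: Col1a1 ran from -1.69 without Bap1LysM library 2 to -0.54 without Bap1flox library 3. Between the same omissions Col3a1 ran from -0.55 to 0.18 and Pdgfra from -0.83 to 0.03, so that both changed sign, while Dcn kept its sign (-1.65 to -1.12 over all omissions). A test of whether the genotype difference itself differed between the replicate series, chosen after seeing the data, called none of 12919 genes (0%), with 1185 genes (9.17%) and 2 members under 0.05 unadjusted.

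Among the other matrix genes, 32 of 39 passed the filter on low counts and 2 were called between genotypes in preOCs by edgeR (quasi-likelihood, p adjusted by Benjamini-Hochberg), beside the 15.8% of all genes, which also stands behind the counts for the other lists here. Ecm1, extracellular matrix protein 1, rose in Bap1LysM (1.12 ± 0.16, adjusted p = 0.00121) and its ranges did not overlap. Emilin1, a glycoprotein of elastic fibres, fell (-0.75 ± 0.22, adjusted p = 0.0391), a call that was lost in 8 of 11 fits with 1 library left out, those without Bap1flox library 1, 2, 3 or 5 or Bap1LysM library 2, 4, 5 or 6. The median log2 fold change of the 32 genes was -0.67, against -0.01 over all genes. Of 23 collagen processing genes tested, P3h1, a prolyl hydroxylase of collagen, was called lower (-0.67, adjusted p = 0.0168), and not without Bap1LysM library 4 or 5. Of 10 pericyte and smooth muscle markers, Cspg4 (NG2) fell (-1.73 ± 0.39, adjusted p = 0.0118), and of 12 mesenchymal genes, Kitl, the ligand of the Kit receptor, rose (1.86 ± 0.17, adjusted p = 0.000343). Kitl went against its list, in which 10 of the 12 genes had negative values and the median was -0.56. The median of the pericyte and smooth muscle markers was -1.14. Of 5 endothelial markers tested 2 were called higher and 2 lower, and of 10 macrophage markers 2 higher. Of 10 osteoclast markers 1 was called higher and 1 lower, and of 14 genes of matrix degradation 1 lower.

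In BMMs the fitted differences had the same sign as in the preOCs: -1.10 ± 0.70 for Col1a1, -1.15 ± 0.66 for Col1a2, -0.93 ± 0.61 for Col3a1, -0.95 ± 0.55 for Sparc, -1.25 ± 0.44 for Postn, -0.51 ± 0.56 for Pdgfra and -0.86 ± 0.55 for Pdgfrb (3 against 3 libraries). Dcn was too low to be tested. None of the 7 was called, beside 5.32% of all genes. Unadjusted, 1 member and 26.2% of all genes were under 0.05, and DESeq2 and voomWithQualityWeights each called 1 member, beside 12.2% and 13.6% of all genes. The ranges of all 7 overlapped, while those of 32.6% of all genes did not. With the replicate number as a block, 4 were called lower, beside 16.2% of all genes: Col1a1 (-0.93 ± 0.18), Col1a2 (-1.01 ± 0.16), Sparc (-0.82 ± 0.16) and Postn (-1.18 ± 0.13). In each pair of equal number the Bap1LysM library was the lower for these genes, although library 1 of either genotype was below every other library of its group. Without Bap1LysM library 1, the unblocked difference was -0.73 ± 0.69 for Col1a1 and -0.65 ± 0.56 for Sparc. The block without it, which rests on 2 pairs, called 6 of the 7 lower, all but Pdgfra, with -1.20 ± 0.11 for Col1a1 and -1.35 ± 0.10 for Postn; 20.6% of all genes were called in that fit.

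Of 33 other matrix genes tested in BMMs, Ecm1 was called by edgeR's quasi-likelihood test, higher in Bap1LysM (0.90 ± 0.17, adjusted p = 0.0364), and the median of the 33 was -0.84. That call was not made when Bap1flox library 1, 2 or 3 or Bap1LysM library 1 was left out. Under the replicate block 21 of the 33 were called, 20 lower and Ecm1 higher, beside the 16.2% of all genes in that fit and 5.32% without the block. P3h3, another collagen prolyl hydroxylase, fell by 1.61 on the log2 scale (adjusted p = 0.0101, edgeR), and not without Bap1flox library 2 or 3. Kitl rose (2.32 ± 0.48, adjusted p = 0.0448, edgeR). Runx2 (-0.81, adjusted p = 0.0183) and Vwf (-0.89, adjusted p = 0.0444) fell in the same test. In that test 1 macrophage marker was also called lower and 1 osteoclast marker higher.

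**Figure D5:**
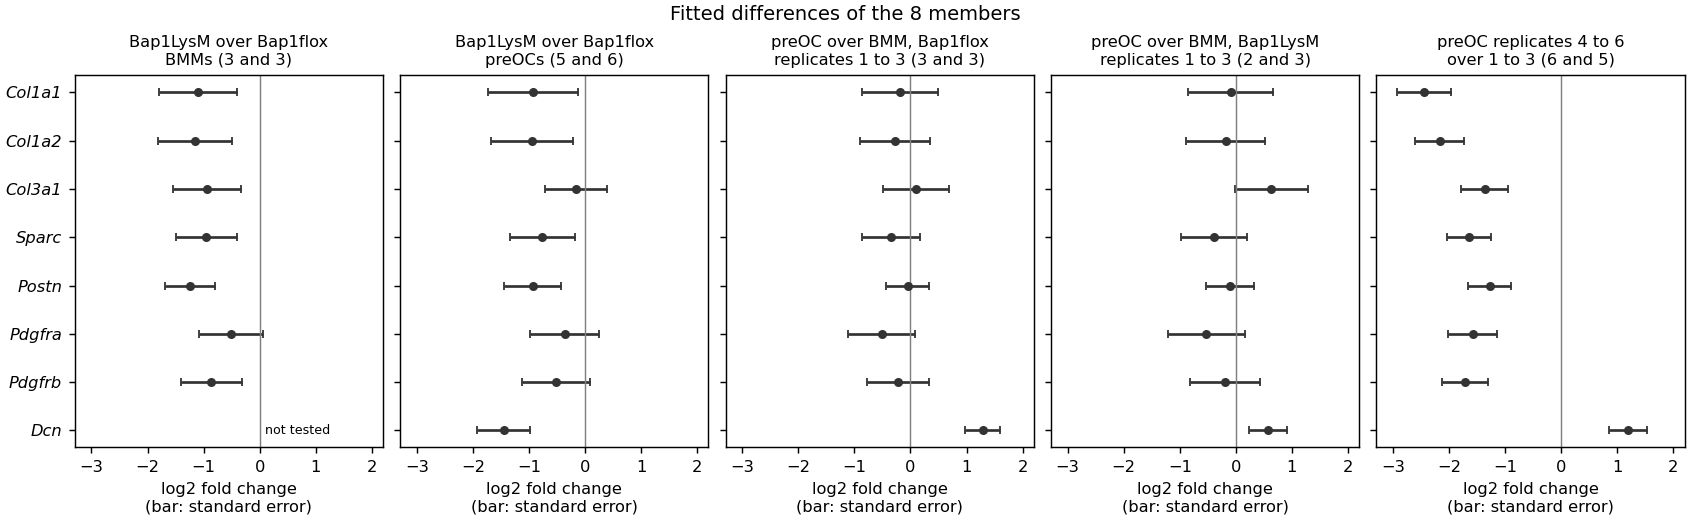
Log2 fold change of each member with its standard error (bars) for the genotype difference in preOCs and in BMMs, the RANKL response of each genotype, and the preOC difference between replicates 4 to 6 and 1 to 3; Dcn was not tested in BMMs. The genotype differences lie near or below 0 with wide errors, and the difference between replicate series is the most negative for Col1a1 (-2.45) and positive for Dcn (1.19).

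The RANKL response was taken from replicates 1 to 3, in which both cell states were present, and in Bap1LysM from 2 preOC libraries against 3 BMM libraries. In Bap1flox, Dcn was called higher in preOCs (1.29 ± 0.31), and its ranges did not overlap. Dcn was at 0.480 to 0.841 CPM in all BMM libraries and passed the filter of CPM above 1 only through preOC libraries. The filter thus favoured a rise, and nothing is read from the call. The other 7 members had log2 fold changes of -0.51 (Pdgfra) to 0.09 (Col3a1) and were not called, and their ranges overlapped. Of all genes 58.1% were called and 71.8% had ranges apart. Leaving out 1 library moved Col1a1 from -0.65 to 0.19 and Col3a1 from -0.36 to 0.43 in Bap1flox. Col1a2, Postn and Pdgfrb also changed sign, while Sparc and Pdgfra stayed negative. In Bap1LysM no member was called, beside 38.9% of all genes, and none was under 0.05 unadjusted, beside 48%; voomWithQualityWeights and DESeq2 called none either, beside 21.5% and 31% of all genes. Dcn, under the same limit of the filter, stood at 0.57 ± 0.34 with ranges apart, as had 54.9% of all genes. Col3a1 stood at 0.63 ± 0.66. With 1 library left out, Col1a1 ran from -1.30 to 0.56 in Bap1LysM and Col3a1 from -0.27 to 1.19. Without BMM library 1 they stood at -0.47 ± 0.76 and 0.36 ± 0.72 and Dcn at 0.49 ± 0.39, and without preOC library 1, which leaves 1 preOC library, at 0.56 ± 0.84, 1.19 ± 0.74 and 0.75 ± 0.43, with the spread taken from the other groups. With the replicate block, Pdgfra was also called lower in Bap1flox (-0.52 ± 0.17), beside 61.2% of all genes, and Col3a1 higher in Bap1LysM (0.83 ± 0.29), beside 41% of all genes. Without both Bap1LysM libraries numbered 1, which again leaves 1 preOC library, Col3a1 stood at 1.04 ± 0.40 in that fit and was not called.

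Ligands of the members' receptors and enzymes that act on the matrix were read in the same fit. Of the ligands of the PDGF receptors in Bap1flox, Pdgfb (2.78 ± 0.37, adjusted p = 0.000187) and Pdgfa (1.97 ± 0.19, adjusted p = 3.9e-05) rose and Pdgfc fell (-1.74 ± 0.31, adjusted p = 0.000939; edgeR). In Bap1LysM they stood at 2.68, 2.07 and -1.45 and were called as well. Of the collagen-degrading enzymes, Ctsk (cathepsin K) rose by 7.46 and Mmp9 by 7.10 on the log2 scale in Bap1flox, both also genes of osteoclasts, and Mmp14 also rose. Of the 14 genes of matrix degradation tested, 6 were called, beside the 58.1% of all genes. As many fell as rose, Mmp11 (-1.56), Mmp19 (-0.78) and the inhibitor Timp2 (-0.69), and the median of the 14 was -0.53, against -0.03 over all genes. Of 34 other matrix genes tested in Bap1flox, Col5a3 rose (2.02 ± 0.59, adjusted p = 0.014) and Emilin1 fell (-1.52 ± 0.19, adjusted p = 0.000144). Under the block 11 of the 34 were called, 2 higher and 9 lower, beside the 61.2% of all genes. Cspg4, a pericyte marker, rose (2.77 ± 0.19, adjusted p = 1.11e-05), while the other 10 markers of that list had negative values and were not called, and the median of the 11 was -0.73.

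The test of whether the genotypes differed in their RANKL response called no gene of 13635 (0%), with 1718 genes (12.6%) under 0.05 unadjusted and no member among them. The interaction was 0.10 for Col1a1, 0.54 for Col3a1 and -0.72 ± 0.47 for Dcn. With 1 library left out, Col1a1 ran from -1.11, without Bap1LysM preOC library 2, to 0.75, without Bap1LysM preOC library 1, each of which leaves 1 preOC library of that genotype. DESeq2 called 90 genes and voomWithQualityWeights none, and no member was among the 90.

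Differences between the replicate series of the preOCs were large for the members. With genotype in the model, the log2 fold change of replicates 4 to 6 over replicates 1 to 3 was -2.45 ± 0.48 for Col1a1, -2.17 ± 0.44 for Col1a2, -1.37 ± 0.42 for Col3a1, -1.65 ± 0.39 for Sparc, -1.28 ± 0.38 for Postn, -1.58 ± 0.44 for Pdgfra and -1.72 ± 0.41 for Pdgfrb, and 1.19 ± 0.34 for Dcn (6 against 5 libraries). All 8 were called, 7 lower and 1 higher. Of all genes 53.5% were called, 28.1% lower and 25.5% higher, so calls were common in this comparison. The ranges of all 8 members overlapped, and for the 7 genes other than Dcn Bap1LysM library 1 lay within the range of replicates 4 to 6, whereas 24.1% of all genes had ranges apart. Without that library all 8 were called in the same directions, Col1a1 at -2.82 ± 0.39 and Dcn at 1.31 ± 0.35. The summed level of the members was 465 to 2516 CPM in replicates 1 to 3 and 126 to 535 CPM in replicates 4 to 6. The labels give no date, lane or culture lot for these series, so their source cannot be told apart from the series themselves.

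Most of the related lists had negative medians in that comparison. Of 32 other matrix genes, 28 fell and none rose, with a median of -1.73, against -0.02 over all genes; Igfbp7, an insulin-like growth factor binding protein, changed by -2.29 ± 0.34 (adjusted p = 0.000294, edgeR), Col5a1 by -2.24 and Fbln2, a fibulin, by -2.11. Of 23 collagen processing genes 19 fell, among them Serpinh1, the collagen chaperone, by 2.02 on the log2 scale, and Fkbp10 by 2.15. All 10 pericyte and smooth muscle markers tested fell, Actg2 with a log2 fold change of -2.45 and Acta2 of -2.10, and 7 of 12 mesenchymal genes fell, Cxcl12 with -2.29. Ecm1 did not pass the test (-0.09 ± 0.16). The genes of matrix degradation were mixed, 6 of 14 lower and 2 higher (Ctsk at 0.76 and Mmp19 at 0.50), and 1 of 3 PDGF ligands, Pdgfb (-0.57), and 2 of 5 endothelial markers, Kdr and Esam, were lower. Macrophage markers went both ways, 5 higher and 2 lower, and 3 osteoclast markers were higher. Their part in the members' difference was not tested.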

How the data were processed

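RNA of 17 libraries was sequenced after poly-A selection (paired reads). The authors aligned reads to GRCm38 with STAR 2.5.1a and deposited whole-number counts per Ensembl release 76 gene made with featureCounts 1.4.6-p5; the strand setting is not given in the sources used here. The deposited CPM and RPKM columns follow from these counts, their totals and gene lengths, and were recomputed. Levels are CPM without further scaling. Symbols came from GENCODE M21 (97.5% of IDs).

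Ribosomal RNA genes (355) stayed out of all tests. Counts were tested with edgeR 4.0.16 (quasi-likelihood, TMM factors, Benjamini-Hochberg over all genes tested, threshold 0.05) in R 4.3.3, after a filter of CPM above 1 in 4 of 11 preOC, 2 of 6 BMM or 2 of 11 replicate 1 to 3 libraries. Correlations used log2 CPM with a prior count of 2. The script was tested on simulated data. p-values measure the spread between libraries. No 2 libraries of the same group agreed within sampling noise.

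The 8 members and the gene lists were chosen with earlier results of these data known. Besides the members, the text names genes among the 3 most abundant of a list and some, not all, of the called genes per comparison. It also names the 10 genes nearest to the members' mean profile, and defining markers at 0. Others were chosen after their values were seen.

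Same-numbered libraries deviated together (r of 0.537, 0.363 and 0.411 in BMMs; 0.239 to 0.374 for RANKL in Bap1flox, 0.521 and 0.387 in Bap1LysM; 0.367 to 0.716 in preOCs, but -0.14 to 0.035 for replicates 4 to 6 once the series mean was removed). Alternatives were RLE and upper-quartile factors, DESeq2 1.42.0, limma 3.58.1 voomWithQualityWeights (the authors' method), other filters, the replicate block (also without the Bap1LysM libraries numbered 1), a term for replicate series, each series alone, all 17 libraries in 1 fit, and each library left out.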

Additional observations from a re-analysis of the deposited data

Results flagged for a closer look

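Each member and each list sum was examined in each preOC group for a value far from the others, 40 sets of values in all. The rule needs 4 to 10 libraries, so BMM groups of 3 were left out. In 6 sets such a value was found. Chance gives about 1 in 20 only for independent, normally distributed values. These sets share genes and libraries and span both replicate series, so no excess over chance is read from them. All 6 values were in Bap1LysM preOCs. Library 2 stood above the rest for Col1a1 (760.9 CPM, the next 204.4), Col1a2 (419.9 CPM, the next 138.7), the summed members (1564 CPM, the next 534.9) and the summed PDGF ligands (329 CPM, the next 216.2). It is 1 of only 2 Bap1LysM preOC libraries of replicates 1 to 3. Library 1 had the highest sum of endothelial markers (62.65 CPM, the next 38.9) and the lowest sum of osteoclast markers (2634 CPM, the next 5713). Its Lyz2 stood at 75.1% of the Bap1flox mean.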

How the results depend on the processing

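Counts of called members and of called other matrix genes moved with the model, as did the share of all genes called: 0 to 54.9% over the fits named here for preOCs, 5.32 to 20.6% for BMMs, 28.5 to 76.2% for RANKL in Bap1flox and 21.5 to 48.5% in Bap1LysM. In preOCs the members called between genotypes, 0 with edgeR, were 1 with upper-quartile factors, DESeq2, the replicate block, the series term, replicates 4 to 6 alone, replicates 1 to 3 without Bap1LysM library 1 or all 17 libraries, and 2 with voomWithQualityWeights; the other matrix genes, 2 with edgeR, were 6 with DESeq2, 5 with voomWithQualityWeights, 4 with no filter, filterByExpr, the block, the series term or all 17 libraries, 7 in replicates 4 to 6 and 0 in replicates 1 to 3. In BMMs they were 1 and 2 with DESeq2 and voomWithQualityWeights, and 4 and 21 with the replicate block, against 0 and 1. For RANKL in Bap1flox, 2 matrix genes became 5 with DESeq2, 16 with voomWithQualityWeights, 4 with no filter, 11 with the block and 6 with all 17 libraries, and 1 member became 2 with the block. For RANKL in Bap1LysM, they were 5 with DESeq2, 1 with voomWithQualityWeights, 8 with the block and 6 with all 17 libraries, and 1 member with the block. With the block and the Bap1LysM libraries numbered 1 left out, which was chosen after seeing the data, members and matrix genes called were 1 and 5 in preOCs, 6 and 29 in BMMs, and 0 and 7 for RANKL in Bap1LysM. The cause was not tested. The block changed no other count of members by over 1.5 times.

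With 1 library left out, called members ranged from 0 to 1 in preOCs (1 without Bap1flox library 1), stayed at 0 in BMMs, at 1 for RANKL in Bap1flox, at 0 for RANKL in Bap1LysM and at 0 for the interaction, and ranged from 7 to 8 between replicate series. Called matrix genes ranged from 1 to 3 in preOCs (1 without Bap1flox 1, 2, 3 or 5 or Bap1LysM 4, 5 or 6), 0 to 2 in BMMs (0 without Bap1flox 2 or 3 or Bap1LysM 1, 2 without Bap1flox 1), 2 to 5 for RANKL in Bap1flox (5 without Bap1flox BMM 1), 1 to 3 in Bap1LysM (1 without preOC 2) and 23 to 31 between series. The median correlation among the 7 genes was 0.917 without the 2 farthest libraries and 0.887 within replicates 4 to 6; that of Dcn was -0.31 with TMM factors, -0.63 without the 2 farthest, 0.114 within replicates 4 to 6 and -0.85 within Bap1flox. Replicates 1 to 3 and Bap1LysM preOCs, with 5 libraries each, were not run. Dcn in BMMs and Pdgfra rest on few reads, which limits their precision.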
